A study of Mus musculus with 9 samples.

Results

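The sterol genes described here are 36 genes of cholesterol synthesis, sterol uptake and transport, and LXR-driven efflux, taken by symbol from the 14771 genes of the deposited table. All 36 had a row, and 35 passed the filter on low counts. Nr1h3, which encodes LXRα, had 1 to 7 counts per library and was not tested. The members were measured by RNA sequencing in MH-S cells, a mouse alveolar macrophage line, in 3 groups of 3 libraries numbered 1 to 3. In the SUR group, cells received 200 µM suramin, a polyanionic drug, together with 1 µg/ml LPS for 4 h according to the treatment protocol, although the sample label names suramin alone. The LPS group received 1 µg/ml of this bacterial lipopolysaccharide for 4 h, and the CON group received medium. On that reading no group received suramin without LPS. The labels do not say that libraries came from separate cultures or what a number marks, so the p-values cover only the spread among these 9 libraries, which may be technical.

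Cells make cholesterol from acetyl-CoA through the mevalonate pathway. When the membranes of the endoplasmic reticulum run low in sterol, the escort protein SCAP carries SREBP2 to the Golgi, where it is cleaved into a transcription factor that raises the synthesis and uptake genes, and INSIG proteins hold SCAP back when sterol is plentiful. Oxysterols formed from surplus cholesterol activate the LXR nuclear receptors, which raise the efflux pumps ABCA1 and ABCG1. In macrophages both arms are known to be tied to Toll-like receptor signalling.

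Library totals lay between 15729398 and 16675243 counts. All 8 macrophage markers were tested. Their sum, most of it Lyz2, came to 3981 to 6697 FPKM in SUR, 4113 to 6784 FPKM in LPS and 4075 to 6494 FPKM in CON, while Mertk lay at 2.29 to 4.06 FPKM in all libraries. FPKM are read fragments scaled by transcript length and library size. Of 8 markers of alveolar macrophages only Itgax and Fabp4 were tested, while Siglecf, Marco, Chil3 and Pparg lay between 0 and 0.40 FPKM in all libraries. Tnf, a gene that LPS is known to raise, was at 1932 to 2352 CPM in LPS libraries, and among untreated libraries CON 1 stood apart, with 404 CPM against 92.1 CPM in CON 2 and 22.1 CPM in CON 3. CPM are TMM-scaled counts relative to library size. Results that rest on CON are therefore also given without CON 1.

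Promoters of 6 members are shown because these genes carry the contrasts described next. Idi1, Hsd17b7 and Insig1 were higher in LPS than in CON, Lss was lower although it belongs to the same pathway, Abca1 is an LXR target, and Hmgcs1 alone held the sterol regulatory element searched for. Each run spans 250 bases before to 50 bases after the RefSeq start in GRCm38.p6, read 5′ to 3′ on the gene's strand. The Idi1 run lies wholly inside the deposited span of that gene, 8884914 to 8892396. Its RefSeq start is thus downstream of the first base of that span. Capitals mark the sterol regulatory element TCACNCCAC, the NF-Y box CCAAT and the E-box CACGTG on either strand.
Idi1, chr13:8885356-8885655, plus strand: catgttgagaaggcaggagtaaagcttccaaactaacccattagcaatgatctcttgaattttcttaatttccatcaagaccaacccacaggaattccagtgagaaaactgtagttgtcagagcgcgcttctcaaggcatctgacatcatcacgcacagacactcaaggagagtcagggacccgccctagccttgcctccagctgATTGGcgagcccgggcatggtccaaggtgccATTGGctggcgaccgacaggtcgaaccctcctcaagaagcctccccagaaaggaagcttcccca
Hsd17b7, chr1:169969156-169969455, minus strand: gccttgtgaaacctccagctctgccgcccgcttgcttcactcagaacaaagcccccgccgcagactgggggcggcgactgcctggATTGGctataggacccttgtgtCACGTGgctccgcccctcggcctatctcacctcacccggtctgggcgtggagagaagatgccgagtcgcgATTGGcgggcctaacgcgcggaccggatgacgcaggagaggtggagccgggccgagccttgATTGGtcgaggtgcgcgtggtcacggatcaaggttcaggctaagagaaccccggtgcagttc
Lss, chr10:76531355-76531654, plus strand: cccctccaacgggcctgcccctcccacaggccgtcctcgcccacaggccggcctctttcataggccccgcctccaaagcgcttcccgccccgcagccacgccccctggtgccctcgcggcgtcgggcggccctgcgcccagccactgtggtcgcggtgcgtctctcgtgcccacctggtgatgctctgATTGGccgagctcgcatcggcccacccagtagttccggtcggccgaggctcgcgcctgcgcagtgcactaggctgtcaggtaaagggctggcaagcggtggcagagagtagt
Insig1, chr5:28071162-28071461, plus strand: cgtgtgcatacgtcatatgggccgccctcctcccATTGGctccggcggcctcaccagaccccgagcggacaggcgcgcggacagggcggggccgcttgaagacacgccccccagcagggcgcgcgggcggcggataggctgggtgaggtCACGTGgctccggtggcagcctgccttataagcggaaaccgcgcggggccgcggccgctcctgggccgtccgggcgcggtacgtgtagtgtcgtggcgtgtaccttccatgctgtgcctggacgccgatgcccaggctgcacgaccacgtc
Abca1, chr4:53159846-53160145, minus strand: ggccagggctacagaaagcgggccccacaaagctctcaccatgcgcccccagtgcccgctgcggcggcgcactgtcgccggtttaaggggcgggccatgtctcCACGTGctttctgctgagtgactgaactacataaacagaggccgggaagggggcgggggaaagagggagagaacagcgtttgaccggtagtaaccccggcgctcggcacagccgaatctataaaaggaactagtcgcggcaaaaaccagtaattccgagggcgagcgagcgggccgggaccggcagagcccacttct
Hmgcs1, chr13:119690101-119690400, plus strand: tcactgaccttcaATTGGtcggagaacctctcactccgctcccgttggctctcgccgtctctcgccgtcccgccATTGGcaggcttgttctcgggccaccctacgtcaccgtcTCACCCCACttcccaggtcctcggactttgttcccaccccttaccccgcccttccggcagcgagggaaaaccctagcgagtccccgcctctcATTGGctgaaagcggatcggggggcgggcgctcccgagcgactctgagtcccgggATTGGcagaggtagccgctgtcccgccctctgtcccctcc

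RefSeq windows were at hand for 29 of the 36 members, 40 windows in all, and Abcg1 was among the members without one. Of the 17 synthesis enzymes 14 had at least 1 window, and Sqle, Fdft1 and Fdps had none. The NF-Y box, bound by a factor known to work beside SREBP2, stood in at least 1 window of 14 of 14 synthesis enzymes and in 82.4% of their 17 windows, against 37.4% of all 32851 windows of the table. The Sp1 box GGGCGG stood in 82.4% of the enzymes' windows as well, against 35.7% of all windows. The Idi1 and Lss windows both hold NF-Y boxes, 2 in Idi1 and 1 in Lss, although Idi1 was higher and Lss lower in LPS than in CON. Sequence upstream of the deposited Idi1 span was not searched. The E-box stood in 17.5% of members' windows, against 7.15% of all windows, and the Hsd17b7, Insig1 and Abca1 runs each hold 1. The sterol regulatory element in those exact letters stood in the Hmgcs1 window and in 1.24% of all windows. An LXR element, taken as AGGTCA repeated after a gap of 4 bases with at most 2 mismatches over 12 letters, stood in 1 of the 40 windows, at Dhcr7, and in 3.02% of all windows. A missing match says only that those letters are not in the window, and LXR elements with more mismatches were not searched for.

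LPS against CON asks what 4 h of LPS did to the sterol genes. Within the synthesis pathway single enzymes moved in opposite directions, and the 2 cholesterol pumps also parted, with Abca1 higher and Abcg1 lower. The feedback gene Insig1 rose 1.99-fold, and Scd2, a fatty acid desaturase, fell. Of 35 members, 5 were higher, against 8.98% of all 11281 genes tested, and 3 were lower, against 9.36%, at an adjusted p under 0.05 (edgeR quasi-likelihood F test, adjusted by Benjamini-Hochberg over all genes). Without CON 1 the counts were 4 higher and 3 lower. The balance differed in other fits: limma on log2(FPKM + 1) gave 3 higher and 7 lower and upper-quartile scaling 3 higher and 6 lower, and on FPKM the median of all genes shifted by -0.11. The median log2 fold change was 0.10 over the members and -0.01 over all genes. The replicate numbers pair the libraries, and with the number as a replicate block 13 members were higher, against 20.1% of all genes, and 8 were lower, against 21.7%.

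Among the 7 enzymes from HMG-CoA to squalene, 1 was called higher and none lower without the replicate block. With it 3 were called higher and 2 lower. Idi1, on chromosome 13 at 8884914 to 8892396, interconverts the 5-carbon isoprene building blocks. It had 77.1, 82.6 and 96.9 CPM in LPS libraries 1 to 3, against 53.1, 56.4 and 63.1 CPM in CON libraries. All LPS libraries lay above all CON libraries, and the log2 fold change was 0.57 ± 0.13 (SE, edgeR adjusted p = 0.0130). Without CON 1 it was 0.53 (adjusted p = 0.0364). Part of the Idi1 counts are fractions in all 9 libraries, as when reads are divided between genes, so its level is uncertain. Hmgcs1, the enzyme that makes HMG-CoA, averaged 319 ± 33.0 CPM in LPS and 266 ± 17.6 CPM in CON (SD, n = 3 each), and was called only with the replicate block (adjusted p 0.135 without the block and 0.000969 with it). Mvd, which decarboxylates mevalonate pyrophosphate, went the other way, with 16.9, 22.5 and 24.7 CPM in LPS, against 25.8, 30.6 and 34.9 CPM in CON. Its libraries did not overlap between the groups. Its log2 fold change of -0.51 ± 0.18 missed the threshold in the edgeR fit without the replicate block (adjusted p = 0.0946) and passed it with the block (adjusted p = 7.54e-05). Fdps, which makes farnesyl pyrophosphate, averaged 67.6 ± 5.73 CPM in LPS and 68.6 ± 5.16 CPM in CON (SD, n = 3 each) and was called in neither fit.

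Among the 10 enzymes from squalene to cholesterol, 1 was called higher and 1 lower without the replicate block. With it 4 were called higher and 3 lower. Lss, on chromosome 10 at 76531565 to 76557139, closes the sterol rings to give lanosterol. It had 43.9, 42.5 and 45.1 CPM in LPS, against 52.8, 53.9 and 60.0 CPM in CON, so every LPS library lay below every CON library (log2 fold change -0.34 ± 0.07, edgeR adjusted p = 0.00858). Hsd17b7, on chromosome 1 at 169949535 to 169969242, a ketoreductase of sterol demethylation, had 40.2, 38.8 and 42.0 CPM in LPS, against 33.3, 31.2 and 34.9 CPM in CON. Again the groups did not overlap (log2 fold change 0.28 ± 0.07, edgeR adjusted p = 0.0201). Cyp51, which removes the 14α-methyl group of lanosterol, lay at 93.1, 114 and 125 CPM in LPS, against 71.1, 82.9 and 92.6 CPM in CON. The LPS libraries stood just above the CON libraries, and its adjusted p was 0.0589 without the replicate block and 1.27e-05 with it. Dhcr7, which carries out a last reduction to cholesterol, lay at 14.3, 22.3 and 21.4 CPM in LPS, against 24.9, 29.6 and 31.6 CPM in CON. Its log2 fold change of -0.57 ± 0.19 had an adjusted p of 0.0757 without the replicate block and 0.000116 with it. Over both stretches, the replicate block called 7 of 17 enzymes higher (Hmgcs1, Idi1, Fdft1, Cyp51, Msmo1, Hsd17b7 and Sc5d) and 5 lower (Mvk, Mvd, Lss, Ebp and Dhcr7). On log2(FPKM + 1) with the replicate block, Hmgcs1, Idi1 and Cyp51 were the enzymes still higher, and the 5 lower ones were joined by Fdps and Nsdhl.

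Of the 5 genes of SREBP control, 2 were called higher without the replicate block and 3 with it, and none was called lower in either fit. Insig1, on chromosome 5 at 28071412 to 28078662, retains SCAP in the endoplasmic reticulum and is itself an SREBP target. It had 253, 205 and 224 CPM in LPS, against 130, 105 and 107 CPM in CON. The lowest LPS library was far above the highest CON library (log2 fold change 1.00 ± 0.11, edgeR adjusted p = 0.000429), and without CON 1 the log2 fold change was 1.11. Srebf2, the gene of SREBP2 itself, on chromosome 15 at 82147269 to 82205379, had 216, 262 and 261 CPM in LPS, against 175, 182 and 199 CPM in CON. The groups did not overlap (log2 fold change 0.41 ± 0.11, edgeR adjusted p = 0.0330), but without CON 1 the adjusted p was 0.0785. Srebf1, the lipogenic relative that is also an LXR target, averaged 140 ± 2.94 CPM in LPS and 131 ± 6.88 CPM in CON, and Scap averaged 80.4 ± 2.56 CPM in LPS and 75.6 ± 5.10 CPM in CON (SD, n = 3 each). Neither was called with or without the replicate block.

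None of the 4 uptake and transport members was called by edgeR without the replicate block, and 1 had an unadjusted p under 0.05. With the replicate block 1 rose and 1 fell. Stard4, a soluble sterol carrier, averaged 68.4 ± 5.05 CPM in LPS and 58.2 ± 3.37 CPM in CON (SD, n = 3 each), with adjusted p 0.114 without the block and 0.00203 with it. Acat2, a cytosolic thiolase that feeds acetoacetyl-CoA to the pathway and whose counts are fractional too, averaged 10.9 ± 1.91 CPM in LPS and 14.0 ± 3.26 CPM in CON, with adjusted p 0.335 without the block and 0.00751 with it. Npc1 and Npc2, the lysosomal sterol exporters, had log2 fold changes of 0.11 and 0.02 and were called in neither fit.

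The LXR and efflux genes gave the sharpest split. Abcg1, on chromosome 17 at 31057694 to 31117984, passes cholesterol to HDL. It had 130, 124 and 126 CPM in LPS, against 214, 209 and 203 CPM in CON. Abcg1 fell 1.65-fold with little spread within groups (log2 fold change -0.72 ± 0.06, edgeR adjusted p = 7.46e-05). Abca1, on chromosome 4 at 53030789 to 53159988, loads cholesterol onto apolipoprotein A-I. It had 263, 231 and 240 CPM in LPS, against 204, 154 and 155 CPM in CON, so every LPS library lay above every CON library (log2 fold change 0.51 ± 0.11, edgeR adjusted p = 0.0139). CON 1, the untreated library with the most Tnf, also held the most Abca1 of its group, and without it the log2 fold change was 0.67 (adjusted p = 0.000815). Mylip, an LXR target that marks lipoprotein receptors for degradation, averaged 19.8 ± 1.24 CPM in LPS and 21.2 ± 0.921 CPM in CON, and Apoe, a secreted carrier of lipid, 9.42 ± 1.71 CPM in LPS and 10.3 ± 1.56 CPM in CON (SD, n = 3 each). Neither was called in either fit. Nr1h2, the gene of LXRβ, averaged 79.4 ± 6.32 CPM in LPS and 73.2 ± 7.29 CPM in CON and was called only with the replicate block (adjusted p 0.0403); on FPKM its means were 41.4 in LPS and 41.6 in CON, so its direction depends on the scaling.

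Of 4 fatty acid and phospholipid genes, 1 was called lower and none higher, with or without the replicate block. Scd2, on chromosome 19 at 44293676 to 44306864, desaturates stearoyl-CoA, and its counts are fractional in all libraries. It had 1139, 1106 and 1108 CPM in LPS, against 1772, 1626 and 1670 CPM in CON, with no overlap (log2 fold change -0.60 ± 0.06, edgeR adjusted p = 0.000179). Fasn, the fatty acid synthase, averaged 522 ± 36.2 CPM in LPS and 488 ± 36.1 CPM in CON. Acaca, which makes its malonyl-CoA, averaged 102 ± 3.87 CPM in LPS and 101 ± 0.399 CPM in CON. Lpcat3, a phospholipid acyltransferase and LXR target, averaged 67.1 ± 6.04 CPM in LPS and 61.3 ± 9.20 CPM in CON (SD, n = 3 each). These 3 were called in neither fit. Without CON 1 the remaining calls of LPS against CON also passed, with log2 fold changes of -0.37 for Lss, 0.30 for Hsd17b7, -0.69 for Abcg1 and -0.55 for Scd2 (edgeR adjusted p 0.0122, 0.0396, 0.000163 and 0.000457 in that order).

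**Figure D1:**
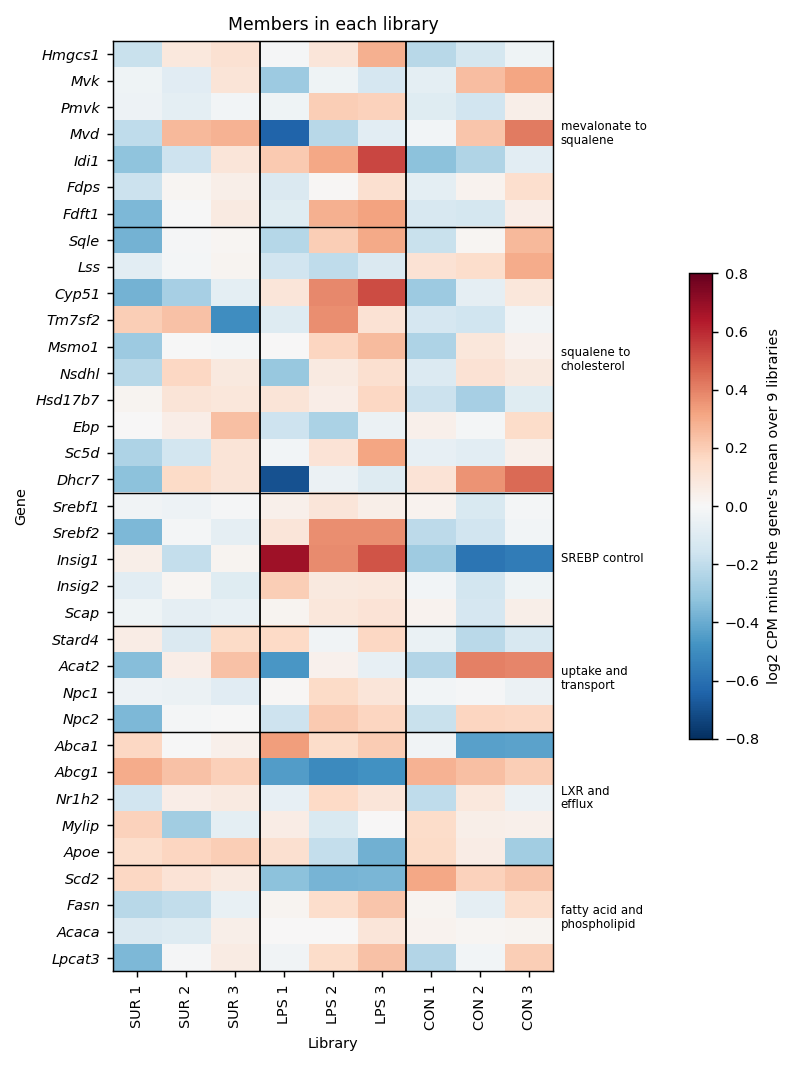
Each cell gives log2 CPM of 1 member in 1 library minus that gene's mean over 9 libraries, with rows grouped by role and columns ordered SUR, LPS and CON, numbers 1 to 3. Abcg1 and Scd2 are lowest in the 3 LPS libraries and Insig1, Srebf2 and Idi1 are highest there, while Npc2, Acat2 and Sqle are low in the libraries numbered 1.

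SUR against LPS asks what differed when suramin was present beside LPS. Abcg1 and Scd2 were higher in SUR than in LPS, and Insig1, Srebf2, Idi1, Cyp51 and Fasn were lower. This comparison and LPS against CON share the LPS libraries, so opposite signs in them are not independent of each other. Of 35 members, 2 were higher, against 9.29% of all genes tested, and 5 were lower, against 7.93%. Log2(FPKM + 1) and upper-quartile scaling each gave 3 higher and 2 lower. The median log2 fold change was -0.11 over the members and -0.01 over all genes. With the replicate block, 6 were higher, against 22.6% of all genes, and 14 were lower, against 22.7%, whereas log2(FPKM + 1) with the replicate block gave 11 higher and 6 lower.

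Abcg1 had 217, 208 and 201 CPM in SUR, against 130, 124 and 126 CPM in LPS. All SUR libraries lay well above the LPS libraries (log2 fold change 0.72 ± 0.06, edgeR adjusted p = 0.000203), and the SUR mean of 209 ± 8.02 CPM equalled the CON mean of 209 ± 5.98 CPM to 3 digits (SD, n = 3 each). Scd2 had 1606, 1540 and 1503 CPM in SUR, against 1139, 1106 and 1108 CPM in LPS, again without overlap (log2 fold change 0.47 ± 0.06, edgeR adjusted p = 0.000914). Abca1, the partner pump, had 234, 208 and 215 CPM in SUR, against 263, 231 and 240 CPM in LPS. The SUR and LPS libraries overlapped, and the log2 fold change of -0.16 ± 0.11 was not called (adjusted p 0.411 without the replicate block and 0.0344 with it). Apoe averaged 11.6 ± 0.229 CPM in SUR and 9.42 ± 1.71 CPM in LPS (SD, n = 3 each). All its SUR libraries lay above its LPS libraries, and it was called in neither fit (edgeR adjusted p 0.236 without the block and 0.0501 with it). With the replicate block it was called higher under upper-quartile scaling and on log2(FPKM + 1). It was also called higher when the libraries numbered 1 were left out.

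Insig1 had 163, 139 and 161 CPM in SUR, against 253, 205 and 224 CPM in LPS. All SUR libraries lay below all LPS libraries (log2 fold change -0.56 ± 0.11, edgeR adjusted p = 0.00920). Srebf2 had 158, 200 and 192 CPM in SUR, against 216, 262 and 261 CPM in LPS, without overlap (log2 fold change -0.43 ± 0.11, edgeR adjusted p = 0.0301). The other genes of SREBP control had log2 fold changes of -0.18 for Insig2, -0.13 for Scap and -0.09 for Srebf1. None of these 3 was called without the replicate block. The replicate block called Insig2 lower (edgeR adjusted p 0.0424), but not under upper-quartile scaling or on log2(FPKM + 1).

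Among the 17 enzymes, 2 were lower and none was higher. Cyp51, on chromosome 5 at 4080674 to 4104697, had 67.0, 72.3 and 82.5 CPM in SUR, against 93.1, 114 and 125 CPM in LPS. The groups did not overlap (log2 fold change -0.58 ± 0.14, edgeR adjusted p = 0.0181). In the GENCODE annotation of GRCm38 its exons overlap those of Akap9 on the other strand, and no source used here says whether counting used strand, so reads of the pair may be mixed. Idi1 had 53.4, 59.4 and 71.3 CPM in SUR, against 77.1, 82.6 and 96.9 CPM in LPS, also without overlap (log2 fold change -0.48 ± 0.13, edgeR adjusted p = 0.0306). Lss, called lower in LPS than in CON, averaged 48.0 ± 1.85 CPM in SUR and 43.8 ± 1.33 CPM in LPS (SD, n = 3 each), with adjusted p 0.249 without the replicate block and 0.0461 with it. Hsd17b7 averaged 39.3 ± 1.18 CPM in SUR and 40.3 ± 1.62 CPM in LPS, and was called in neither fit. With the replicate block 4 enzymes were higher (Mvd, Lss, Ebp and Dhcr7) and 6 were lower (Idi1, Fdft1, Sqle, Cyp51, Msmo1 and Sc5d). On log2(FPKM + 1) with the replicate block the balance turned over, with 7 enzymes higher (Mvk, Mvd, Fdps, Lss, Nsdhl, Ebp and Dhcr7) and 3 lower (Idi1, Cyp51 and Sc5d). Fdft1, the squalene synthase, overlaps Ctsb on the other strand, which limits its value in the same way. The same limit holds for Npc1, Srebf1 and Lpcat3, which overlap Rmc1, Rai1 and Emg1 on the other strand. Fdps and Tm7sf2 overlap Gm43738 and Vps51 on the same strand, so counting by strand would not part them.

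Fasn, on chromosome 11 at 120805947 to 120825166, had 409, 417 and 457 CPM in SUR, against 485, 526 and 557 CPM in LPS. All SUR libraries lay below the LPS libraries (log2 fold change -0.29 ± 0.08, edgeR adjusted p = 0.0422). None of the 4 uptake and transport members was called by edgeR without the replicate block, where 1 had an unadjusted p under 0.05. The block called Npc1 and Npc2 lower (edgeR adjusted p 0.0169 for Npc1 and 0.00112 for Npc2). With the replicate block, Npc1 was not called under upper-quartile scaling or on log2(FPKM + 1), and Npc2 was not called on log2(FPKM + 1).

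**Figure D2:**
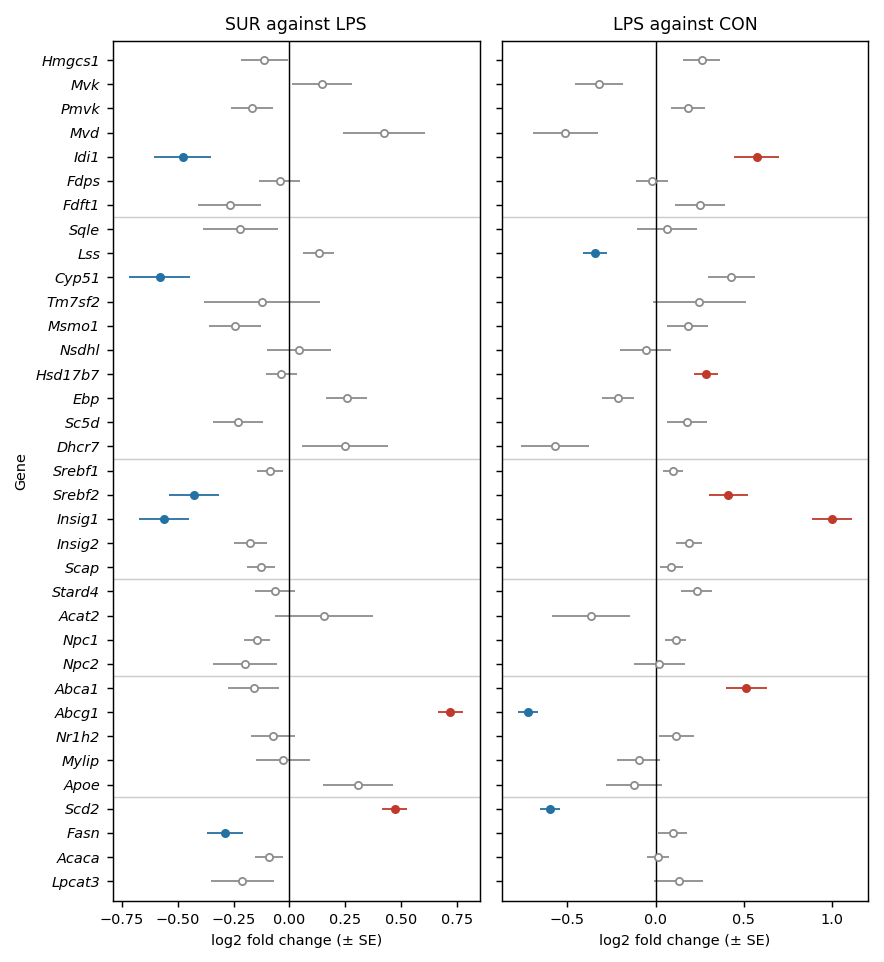
Points give the log2 fold change of each tested member with its SE, for SUR against LPS at left and LPS against CON at right, on axes of different range. Filled points passed edgeR's adjusted p of 0.05 (red higher, blue lower) and open points did not; Abcg1 and Scd2 stand at opposite ends from Insig1 in both panels.

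**Figure D3:**
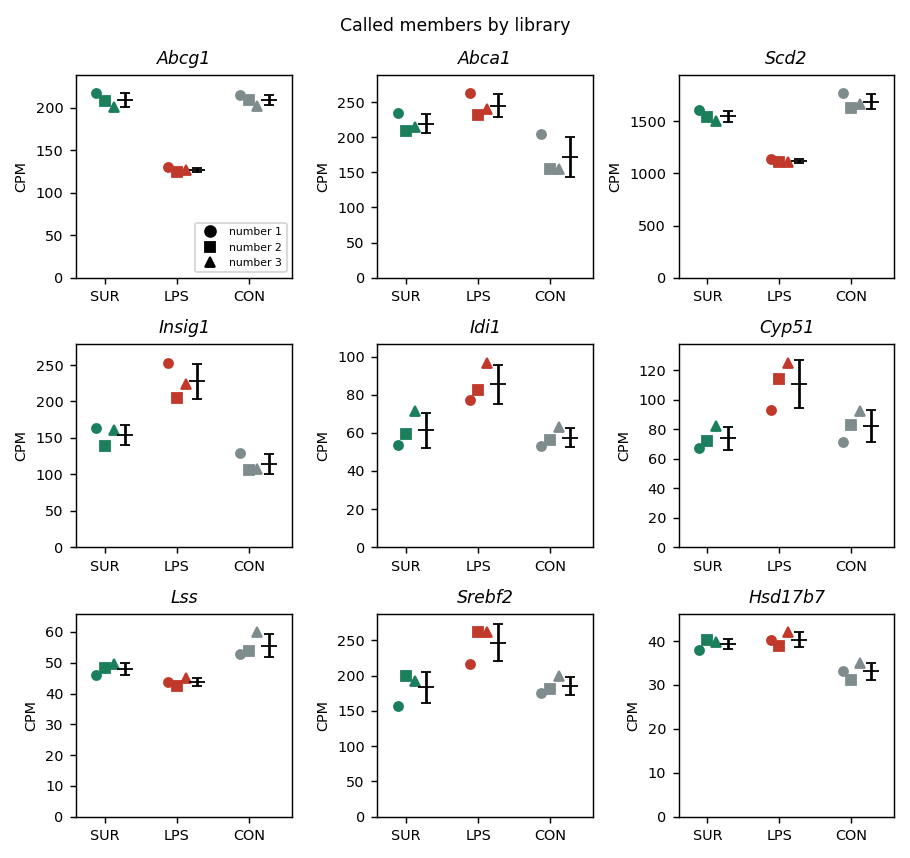
CPM of 9 members called in at least 1 of the 2 comparisons, with a point per library (circle for number 1, square for number 2, triangle for number 3) and a bar for the mean ± SD of each group. Abcg1 and Scd2 have lower LPS points with narrow spread, while the SUR mean of Abca1 lies between its LPS and CON means.

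Calls in these 2 comparisons rest on few libraries and in part on the scaling. Under both upper-quartile scaling and log2(FPKM + 1), Srebf2 and Hsd17b7 lost their LPS against CON calls and Fasn, Srebf2 and Idi1 lost their SUR against LPS calls. Fasn also lost its call without any 1 of LPS 2, LPS 3, SUR 1, SUR 2 and SUR 3. Insig1, Lss, Abcg1 and Scd2 kept their LPS against CON calls whichever library was left out, whereas Abca1, Idi1, Srebf2 and Hsd17b7 were not called without CON 2, which left 1 member called higher (Insig1). Without LPS 3, 2 members were called higher, and without CON 3, 3 were. Srebf2 also lost its LPS against CON call without CON 1, CON 3, LPS 2, LPS 3 or SUR 3. Abca1 also lost it without CON 3, and Idi1 and Hsd17b7 without LPS 3. Insig1, Abcg1 and Scd2 kept their SUR against LPS calls likewise, and a single member was called lower without LPS 2, without LPS 3 or without SUR 1 (Insig1), against 2 without SUR 2 and 3 without SUR 3. Idi1 lost its SUR against LPS call without CON 2, LPS 2, LPS 3, SUR 1 or SUR 2. Cyp51 lost it without LPS 2, LPS 3, SUR 1 or SUR 2, and Srebf2 without LPS 2, LPS 3, SUR 1 or SUR 3.

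SUR against CON asks where cells with suramin and LPS stood beside untreated cells. No member was called by edgeR without the replicate block in either direction, and of all genes 0.39% were higher and 0.0355% lower. Of the 35 members, 5 had an unadjusted p under 0.05. Also without the block, DESeq2 called 1 higher (Insig1), limma-voom called none, and edgeR leaving out CON 1 called 1 higher (Abca1). With the replicate block 4 members were higher, against 7.37% of all genes, and 6 were lower, against 4.18%. The higher ones were Insig1, Abca1, Hsd17b7 and Stard4, and the lower ones were Lss, Cyp51, Dhcr7, Npc2, Scd2 and Fasn. Leaving out CON 1, the block no longer called Cyp51 and Scd2, and it called Hmgcs1 higher. On log2(FPKM + 1) with the block, Stard4, Lss, Cyp51 and Scd2 were not called. Insig1 had 163, 139 and 161 CPM in SUR, against 130, 105 and 107 CPM in CON, all above (log2 fold change 0.43 ± 0.11, edgeR adjusted p = 0.199, and 0.000530 with the replicate block). Abca1 had 234, 208 and 215 CPM in SUR, against 204, 154 and 155 CPM in CON, also all above (log2 fold change 0.35 ± 0.11, edgeR adjusted p = 0.323, and 0.00242 with the replicate block). Hsd17b7 averaged 39.3 ± 1.18 CPM in SUR and 33.1 ± 1.89 CPM in CON (SD, n = 3 each), with an adjusted p of 0.0142 under the replicate block. In the authors' deposited table, Insig1 is the 1 member with a q-value under 0.05 in this comparison, and 8 members pass for LPS against CON and 7 for SUR against LPS.

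Ratios between 2 members within a library do not depend on how libraries are scaled, and the pairs given were chosen after the values were seen. The FPKM of Abca1 over that of Abcg1 was 0.598, 0.557 and 0.593 in SUR, 1.13, 1.04 and 1.06 in LPS, and 0.529, 0.411 and 0.426 in CON. The 3 groups did not overlap, with LPS highest and SUR just above CON. Idi1 over Mvd gave 1.34, 1.08 and 1.28 in SUR, 2.63, 2.12 and 2.25 in LPS, and 1.18, 1.06 and 1.04 in CON, so 2 enzymes of 1 pathway changed their proportion, with LPS apart and SUR overlapping CON. Cyp51 over Dhcr7 gave 2.03, 1.57 and 1.87 in SUR, 3.66, 2.86 and 3.28 in LPS, and 1.61, 1.53 and 1.63 in CON, with the same arrangement. Fasn over Scd2 gave 0.145, 0.155 and 0.173 in SUR, 0.242, 0.272 and 0.287 in LPS, and 0.156, 0.159 and 0.180 in CON, again with LPS apart and SUR overlapping CON.

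Per length, the members spanned a wide range of levels. By mean FPKM over 9 libraries, Scd2 was the most abundant member at 282 FPKM and Npc2 followed at 150 FPKM. Hmgcs1 led the early enzymes at 89.7 FPKM, against 6.39 FPKM for Mvk, and Sqle led the later enzymes at 45.6 FPKM, against 0.967 FPKM for Tm7sf2, a sterol reductase. Among nuclear receptors Nr1h2 stood at 42.0 FPKM and Nr1h3, with its few counts, at 0.194 FPKM.

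Within replicate numbers, the mean of the synthesis and uptake genes rose slightly against that of the LXR targets in LPS and fell in SUR. That this held in all 3 numbers depends on Abcg1, as given below. For each library the mean log2 CPM of 20 synthesis and uptake members was set beside that of 6 tested LXR targets, as a description with no test. The LPS minus CON difference of synthesis minus LXR was 0.06, 0.15 and 0.09 in numbers 1, 2 and 3. The SUR minus LPS difference was -0.11, -0.18 and -0.24, and the SUR minus CON difference was -0.05, -0.03 and -0.14. The sign was thus shared by the 3 numbers in each comparison, but the sizes are small. The synthesis and uptake mean alone differed by 0.02, 0.11 and 0.08 in LPS minus CON, and by -0.06, -0.09 and -0.11 in SUR minus LPS. In LPS against CON, 12 of the 20 had a log2 fold change above 0 and 8 below, and of the 6 LXR targets 3 lay above and 3 below. In SUR against LPS, 7 of the 20 lay above 0 and 13 below, and of the LXR targets 2 lay above (Abcg1 and Apoe) and 4 below, with a median of -0.06. Their mean nonetheless lay above 0 in each number, and Abcg1 had the largest change among them, at 0.72. It also had the largest change among them in LPS against CON, at -0.72. In numbers 1, 2 and 3, Abcg1 differed by -0.72, -0.75 and -0.68 in LPS minus CON. In SUR minus LPS it differed by 0.74, 0.74 and 0.67. The sign shared by the 3 numbers in these 2 comparisons thus depends on Abcg1, and not on the LXR targets as a set.

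**Figure D4:**
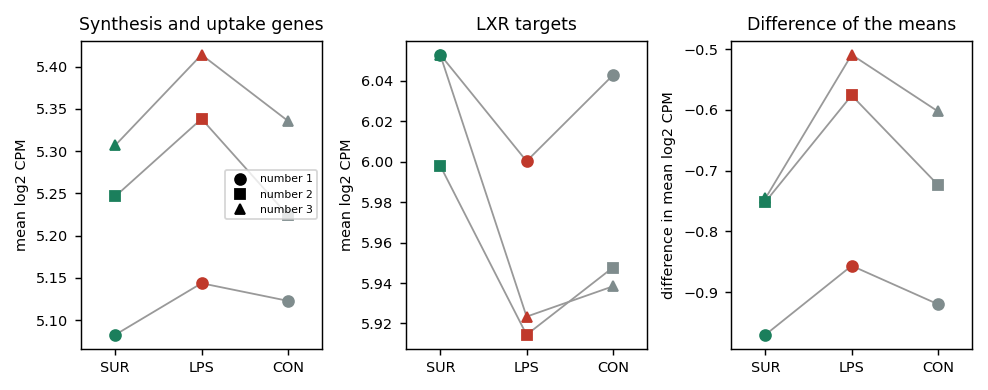
Mean log2 CPM of 20 synthesis and uptake members (left), of 6 LXR targets (middle) and their difference (right) in SUR, LPS and CON, with lines joining libraries of the same number and a separate vertical range per panel. The number 1 libraries lie lowest for synthesis in every group, and the right panel peaks at LPS in all 3 numbers, which depends on Abcg1.

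Libraries numbered 1 were set against those numbered 2 and 3, with group in the fit. This fit takes libraries as independent, although libraries of the same number deviated together. Its p-values therefore cover the spread among libraries and not among numbers, of which number 1 is a single case. Synthesis enzymes were lower in number 1, and of the 6 tested LXR targets 2 were higher (Abca1 and Mylip) and 1 was lower (Lpcat3). Several macrophage markers moved with the number as well, but not all in the same direction. Lyz2 had 1750 CPM in SUR 1, 1760 CPM in LPS 1 and 1781 CPM in CON 1, against 3453 and 3715 CPM in SUR 2 and 3, 3633 and 3890 CPM in LPS 2 and 3, and 3683 and 3600 CPM in CON 2 and 3. Adgre1 was at 393 to 418 CPM in the libraries numbered 1 and at 510 to 556 CPM in the others. Ptprc and Cd68 were also lowest in number 1 of each group. Fcgr1 went the other way, at 127 to 139 CPM in the libraries numbered 1 and at 86.3 to 107 CPM in the others. Csf1r, Cd14 and Mertk did not keep the same direction over the groups. Within a group, counts of library 1 differed from those of 2 and 3 by a chi-square per degree of freedom of 28.3 to 35.5, against 3.73 to 6.01 between 2 and 3. The part of such marker differences in the results for number 1 was not tested. Of 35 members, 4 were higher, against 25.1% of all genes tested, and 15 were lower, against 24.1%. Of the 17 enzymes 10 fell and none rose, all 17 had a log2 fold change below 0, and their median was -0.21, against 0.01 over all genes. The enzymes that fell were Hmgcs1, Mvd, Idi1, Fdps, Fdft1, Sqle, Cyp51, Msmo1, Nsdhl and Dhcr7. Sqle, the squalene epoxidase, had 86.2 CPM in SUR 1, 95.7 CPM in LPS 1 and 98.9 CPM in CON 1, against 112 and 113 CPM in SUR 2 and 3, 128 and 139 CPM in LPS 2 and 3, and 113 and 134 CPM in CON 2 and 3. The number 1 libraries were the lowest of each group (log2 fold change -0.40 ± 0.06, edgeR adjusted p = 0.000115). Npc2 had 349 CPM in SUR 1, 398 CPM in LPS 1 and 394 CPM in CON 1, against 442 to 447 CPM, 504 to 517 CPM and 501 to 502 CPM in the other SUR, LPS and CON libraries. It too was lowest in number 1 of every group (log2 fold change -0.35 ± 0.03, edgeR adjusted p = 5.97e-06). Acat2 had the largest fall of the members called, a log2 fold change of -0.53 ± 0.08 (edgeR adjusted p = 0.000182), followed by Dhcr7 at -0.44 ± 0.07 (adjusted p = 0.000194) and Mvd at -0.43 ± 0.06 (adjusted p = 0.000168).

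The 4 members that rose in number 1 were Abca1, Insig1, Mylip and Scd2. Abca1 had 234 CPM in SUR 1, 263 CPM in LPS 1 and 204 CPM in CON 1, against 208 and 215, 231 and 240, and 154 and 155 CPM in the other SUR, LPS and CON libraries. Number 1 was highest in every group (log2 fold change 0.24 ± 0.05, edgeR adjusted p = 0.00169), and without CON 1 the log2 fold change was 0.15 (adjusted p = 0.0175). Insig1 was also highest in number 1 of each group (log2 fold change 0.22 ± 0.05, edgeR adjusted p = 0.00450), opposite to the enzymes. Mylip had a log2 fold change of 0.20 ± 0.07 (adjusted p = 0.0412) and Scd2 of 0.07 ± 0.03 (adjusted p = 0.0482), and neither passed without CON 1. Srebf2 fell (log2 fold change -0.24 ± 0.05, edgeR adjusted p = 0.00119), as did Nr1h2 and Lpcat3. The synthesis minus LXR level of number 1 was below the mean of numbers 2 and 3 by a difference of -0.22 in SUR, -0.31 in LPS and -0.26 in CON. Tnf was highest in number 1 among CON libraries, at 404 CPM, and not among SUR or LPS libraries, and its part in these differences was not tested. Since the labels do not say what the number marks, a difference in culture, RNA or library cannot be told apart, nor can fewer cells of a kind from less RNA per cell.

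**Figure D5:**
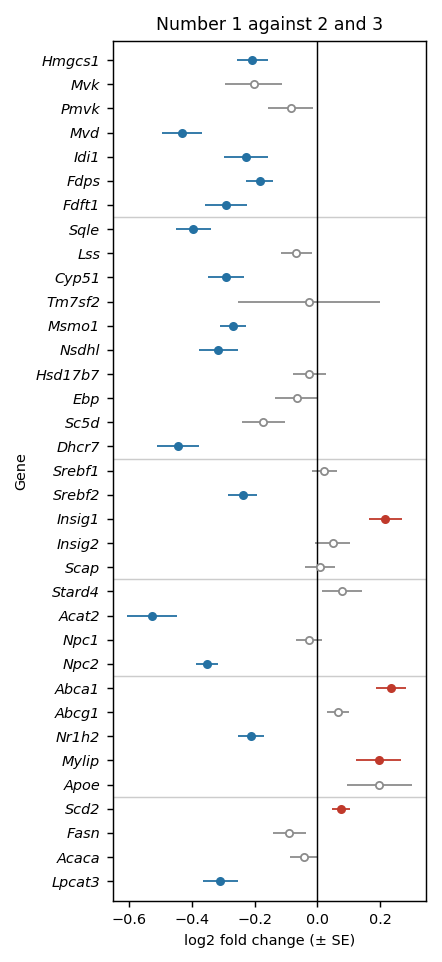
Log2 fold change ± SE of each tested member in the 3 libraries numbered 1 against the 6 numbered 2 or 3, with group in the fit. Filled points passed edgeR's adjusted p of 0.05 (red higher, blue lower); all 17 enzymes at the top lie left of 0, and Abca1, Insig1 and Mylip lie to the right.

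The treatment effects themselves were compared between number 1 and the others by an interaction term with 3 residual degrees of freedom. For LPS against CON no member was called higher or lower by edgeR, against 0.0177% and 0.691% of all genes, limma-voom called none, and 2 members had an unadjusted p under 0.05, Abca1 and Fdft1. The number 1 arm holds 1 library per group, CON 1 among them, and the Abca1 difference was not called (edgeR adjusted p = 0.763). For SUR against LPS no member was called, 0% of all genes passed in either direction, limma-voom called no member, and 0 members had an unadjusted p under 0.05. A p that misses the threshold does not show that the effects were alike.

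A further 63 genes of sterol and lipid handling were listed beside the members, of which 57 had a row and 50 were tested. In LPS against CON without the replicate block, 3 rose, against 8.98% of all genes, and 2 fell, against 9.36%. In that fit the called share lay below that of all genes in both directions. Gramd1b, an endoplasmic reticulum protein that draws cholesterol from the plasma membrane, rose (log2 fold change 0.72 ± 0.08, edgeR adjusted p = 0.000434), as did its relative Gramd1a (0.31 ± 0.07, adjusted p = 0.0158) and Syvn1, a ubiquitin ligase of endoplasmic reticulum degradation (0.37 ± 0.11, adjusted p = 0.0474). Scd1, the sister of Scd2, was among those that fell (-0.55 ± 0.08, adjusted p = 0.00131). In SUR against LPS, 2 were higher, against 9.29% of all genes, and 2 lower, against 7.93%. Scd1 was among the higher ones (0.44 ± 0.08, adjusted p = 0.00505), and Gramd1b (-0.56 ± 0.08, adjusted p = 0.00207) and Gramd1a (-0.24 ± 0.07, adjusted p = 0.0462) were lower. No gene of these lists was called by edgeR without the replicate block in SUR against CON, and 0 of the 50 had an unadjusted p under 0.05. The median log2 fold change of the 50 was -0.02 in LPS against CON and -0.01 in SUR against LPS, near the -0.01 of all genes in both. With the replicate block, 8 of the 50 rose in LPS against CON, against 20.1% of all genes, and 19 fell, against 21.7%. The share that fell then lay above that of all genes. In SUR against LPS the block called 12 higher, against 22.6%, and 11 lower, against 22.7%. In SUR against CON it called 1 higher, against 7.37%, and 2 lower, against 4.18%.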

How the data were processed

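Levels of mRNA were measured in 9 libraries of MH-S cells (3 SUR, 3 LPS, 3 CON). The authors used HISAT2 2.0.4 and GRCm38 per the submitters' processing notes; the sources used here name no counting tool or annotation. Expected counts, estimated and not normalized, were deposited per gene, per the file headers; 93.4% were whole, and all were rounded. The deposited FPKM values, scaled by the authors for length and depth, served levels and 1 alternative. The authors' deposited table also gives log2 fold changes and q-values (p-values adjusted), read as counts of members only. TPM was used to check column sums of the deposited table.

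Of 14771 genes, filterByExpr kept 11281, holding at least 99.964% of each library's counts, and TMM factors were 0.934 to 1.04. Tests used edgeR 4.0.16 (quasi-likelihood F) in R 4.3.3 with all 9 libraries in 1 fit, after the code was tested on simulated data; limma 3.58.1 and DESeq2 1.42.0 served as alternatives. Log2 CPM for the set levels used a prior count of 2. Standard errors were derived from F. Libraries of the same number deviated together: all 9 correlations of their deviations from group means were over 0.1 (0.435 to 0.801), so the numbers pair them by that rule, although 6 of 18 pairs of different number were over 0.1 too (-0.643 to 0.437 in all). No 2 libraries were identical. Called members are given in full, up to 6 per role group and comparison, and others by mean or count. The members and lists were chosen with earlier results of these data known. A gene counted in the wider lists is not reported here by name. Figures used matplotlib 3.10.9 in Python 3.11.15.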

Additional observations from a re-analysis of the deposited data

How the results depend on the processing

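No member called in the edgeR fit without the block reversed direction in any alternative. Among members called only under other settings some directions depend on the scaling, as for Nr1h2, Fdps and Npc2. Counts of called members moved as follows, higher before lower. With the replicate block they were 13 and 8 in LPS against CON, 6 and 14 in SUR against LPS, and 4 and 6 in SUR against CON, and all 15 calls held. Upper-quartile scaling gave 3 and 6 in LPS against CON and 2 lower in SUR against LPS, and log2(FPKM + 1) gave 3 and 7 in LPS against CON and 2 lower in SUR against LPS; on FPKM the median of all genes shifted by -0.11 in LPS against CON and 0.12 in SUR against LPS. Without the libraries numbered 1 the counts were 9 and 6 in LPS against CON, 4 and 11 in SUR against LPS, and 2 higher in SUR against CON. Only the 2 groups compared gave 2 lower in SUR against LPS, and DESeq2 gave 1 higher in SUR against CON. In number 1 against the others, 2 were higher with upper-quartile scaling, with no filter and with DESeq2. Leaving out 1 library gave 1 to 6 higher in LPS against CON, 1 to 5 lower in SUR against LPS, 0 to 1 higher in SUR against CON, and 2 to 3 higher in number 1. The LXR element stood in 0 member windows with no mismatch. 3 settings were added after seeing the data, all with the replicate block. Upper-quartile scaling then gave 8 and 9 in LPS against CON, 7 and 9 in SUR against LPS, and 4 and 7 in SUR against CON. Log2(FPKM + 1) gave 6 and 12 in LPS against CON, 11 and 6 in SUR against LPS, and 3 and 3 in SUR against CON. Leaving out CON 1 gave 15 and 7 in LPS against CON, 5 and 18 in SUR against LPS, and 5 and 4 in SUR against CON. The cause of these shifts was not tested. Expected counts shared between genes limit Idi1, Acat2 and Scd2.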

Other observations

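Outside the members, several sterol and lipid genes also differed between the libraries numbered 1 and the others. Here too the p-values cover the spread among libraries and not among numbers. Of the 50 tested, 11 were higher, against 25.1% of all genes, and 22 were lower in number 1, against 24.1%. Hsd3b7 and Cyp27a1, enzymes of oxysterol and bile acid synthesis, fell (log2 fold changes of -0.78 ± 0.05 and -0.62 ± 0.06, edgeR adjusted p = 4.62e-07 and 5.64e-06). Arl4c, an LXR target, fell by 0.60 on the log2 scale (adjusted p = 1.2e-05), and Apoc2 fell by 0.92 (adjusted p = 0.00557). Erlin1, a sterol-linked protein of the endoplasmic reticulum, rose (0.59 ± 0.05, adjusted p = 1.32e-06), as did Acss2, which makes acetyl-CoA from acetate (0.68 ± 0.11, adjusted p = 0.000238).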
